A study of Homo sapiens with 14 samples.

Results

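CENPQ and 9 other components of the human kinetochore (CENPA, CENPE, CENPF, CENPK, CENPU, NUF2, NDC80, SPC25 and ZWINT) were followed in HepG2 cells, a line grown from a human liver tumour, after they were transfected with miR-124 or a negative control. The genes were chosen from the ratio of miR-124 over control on these same arrays, CENPQ because it was low from the start of the course and the others because they were low at its end. Their levels and ratios are therefore given as a description, with no test. They are 10 of 19775 genes with a probe set of their own on the array, and every probe set whose annotation names one of them alone was used, 14 of 54675. The 7 arrays with miR-124 and the 7 with the negative control were taken at 4, 8, 16, 24, 32, 72 and 120 h, 1 array for each transfection and time, with total RNA hybridised as biotinylated cRNA. miR-124 is a neuronal microRNA, which acts by pairing with short sites in messenger RNAs. No array had a replicate, so a value at a single time carries no error of its own, and the number of arrays limits the precision.

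The kinetochore is the protein assembly on the centromere that ties a chromosome to spindle microtubules in mitosis. Its inner layer, the constitutive centromere-associated network (CCAN), sits on nucleosomes with the histone variant CENPA and holds CENPQ, CENPU and CENPK. CENPQ pairs with CENPU inside a CCAN subcomplex that also has CENPO, CENPP and CENPR (the product of ITGB3BP). The outer layer holds the NDC80 complex, made of NDC80, NUF2, SPC24 and SPC25, which grips the microtubule. ZWINT, the kinesin CENPE and the large coiled-coil protein CENPF are recruited further out. Many of these messenger RNAs peak in G2 and mitosis of dividing cells, and HepG2 cells divide in culture.

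Promoter windows of 300 bases, from 250 before to 50 after the annotated gene start, were at hand for 10 of 10 members in RefSeq's GRCh38.p14 annotation. Shown are the promoter of CENPQ, those of SPC25 and NUF2, which had the lowest ratios of the other 9 members at 72 h, and that of CENPA, which had the highest. Capitals mark matches on either strand to CCAAT (the box bound by NF-Y), to TTTGAA or its variant form TTCGAA (2 cores of the cell cycle homology region), or to TTTNNCGC (an E2F-type sequence).
CENPQ, chr6:49463120-49463419, plus strand: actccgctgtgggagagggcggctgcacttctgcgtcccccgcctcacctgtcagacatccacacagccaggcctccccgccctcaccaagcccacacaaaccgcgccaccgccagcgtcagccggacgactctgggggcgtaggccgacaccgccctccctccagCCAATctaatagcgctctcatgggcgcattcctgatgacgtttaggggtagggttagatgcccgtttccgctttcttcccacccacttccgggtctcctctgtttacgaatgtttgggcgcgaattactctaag
SPC25, chr2:168890381-168890680, minus strand: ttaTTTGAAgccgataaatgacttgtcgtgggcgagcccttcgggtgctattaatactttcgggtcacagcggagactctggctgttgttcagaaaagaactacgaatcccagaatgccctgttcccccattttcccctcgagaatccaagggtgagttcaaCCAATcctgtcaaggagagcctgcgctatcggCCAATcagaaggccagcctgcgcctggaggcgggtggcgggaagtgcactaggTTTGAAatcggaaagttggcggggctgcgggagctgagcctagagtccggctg
NUF2, chr1:163321704-163322003, plus strand: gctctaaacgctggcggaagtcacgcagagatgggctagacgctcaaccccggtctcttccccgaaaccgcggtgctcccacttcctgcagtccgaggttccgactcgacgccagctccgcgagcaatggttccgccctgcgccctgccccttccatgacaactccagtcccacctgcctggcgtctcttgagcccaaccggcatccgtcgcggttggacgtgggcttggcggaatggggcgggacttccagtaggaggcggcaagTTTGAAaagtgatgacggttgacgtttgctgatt
CENPA, chr2:26785806-26786105, plus strand: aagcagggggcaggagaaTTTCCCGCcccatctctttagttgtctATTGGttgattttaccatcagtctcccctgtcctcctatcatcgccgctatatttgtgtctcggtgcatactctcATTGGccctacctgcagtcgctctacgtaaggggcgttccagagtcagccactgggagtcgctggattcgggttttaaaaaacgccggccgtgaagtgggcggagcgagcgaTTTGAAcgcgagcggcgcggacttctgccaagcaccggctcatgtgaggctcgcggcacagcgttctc
CCAAT was found in 7 of the 10 member promoters, and in 34.6% of 35116 promoters of the same length. TTTGAA was found in 6, and in 15.2% of all. TTCGAA was found in 1 (1.45% of all) and TTTNNCGC in 2 (6.89% of all). The CENPQ window held 1 CCAAT, 84 bases before the start, and none of the other 3 motifs. SPC25 held CCAAT at 88 and 56 bases and TTTGAA at 247 and 3 bases before the start. In NDC80, TTCGAA directly followed a TTTGAA match on the other strand. CENPE was the 1 member with none of the 4 motifs. A match is a run of letters and says nothing of what binds there.

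CENPQ was lower with miR-124 at 7 of 7 times. From the 4 h array to the 120 h array its log2 level with miR-124 was 6.54, 5.87, 5.70, 5.36, 5.12, 4.12 and 5.70. In the control it was 6.95, 6.79, 7.24, 7.22, 7.37, 7.22 and 6.96 at the same times. Each of the 7 miR-124 arrays lay below the lowest control array, and the distance to the paired control grew with each time up to 72 h. CENPQ was chosen for its ratios, so this describes the choice. The share of all genes set apart in this way was not counted. In the same order of times the paired log2 ratio was −0.41, −0.92, −1.54, −1.87, −2.24, −3.09 and −1.26. Averaged over the 3 times from 16 to 32 h it was −1.88 ± 0.35 (SD over times, n = 3). The miR-124 level was 75.4% of the control level at the first time, 52.9% at 8 h, 21.1% at 32 h, 11.7% at its lowest and 41.7% at the last.

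Among the 13128 genes with a mean level above the median of all probe sets (log2 6.19), CENPQ had the 209th lowest ratio at 4 h and the 13th lowest at 8 h. It was 10th lowest at 72 h and 72nd at 120 h. The spread of the ratio over these genes was 0.15 (SD) at both 4 and 8 h, 0.34 at 32 h and 0.61 at 72 h. CENPQ was also the dimmest member, with a mean of 6.30 over the 14 arrays, close to the level needed to be counted, which it reached through its control arrays. At 72 h its miR-124 value stood at the 11.1th percentile of that array, against the 69.2th percentile in the control. Array signals near the bottom of the scale are compressed.

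Of the inner kinetochore members besides CENPQ, CENPU, its direct partner, was in its brightest probe set near its control until 32 h and far below it at 72 h. Its log2 level had a lowest, median and highest value of 6.65, 9.39 and 9.99 with miR-124, against 8.66, 9.48 and 10.1 in the control. The ratio lay between −0.24 and 0.16 from 4 to 32 h, and was −2.74 at 72 h and −0.52 at 120 h. The miR-124 arrays of 4 to 32 h lay inside the control range, and those of 72 and 120 h below it. CENPK, of the CCAN subcomplex with CENPH and CENPI, ranged over 7.19, 8.96 and 9.43 with miR-124, against 8.67, 9.01 and 9.19 in the control, with ratios of −1.69 at 72 h and −0.69 at 120 h. CENPA itself ranged over 8.06, 9.40 and 9.97 with miR-124, against 9.15, 9.36 and 9.87 in the control, and its ratio was −1.29 at 72 h and −0.78 at 120 h. Its probe set is of the kind marked as able to cross-hybridise. For CENPK and CENPA too, only the 72 and 120 h arrays with miR-124 were below the lowest control array. How many of all genes had late arrays below their control range was not counted.

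The 3 members of the NDC80 complex had some of the lowest values at 72 h. SPC25 ranged over 5.42, 8.86 and 9.37 with miR-124 (lowest, median, highest) and 7.96, 8.96 and 9.38 in the control. NUF2 ranged over 5.94, 9.05 and 9.22 with miR-124, against 8.63, 8.72 and 9.17 in the control. NDC80 ranged over 6.12, 8.66 and 9.51 with miR-124, against 8.53, 8.78 and 9.49 in the control. In each of them the lowest array with miR-124 was that of 72 h. The ratio at 72 h was −3.23 for SPC25, 9.40-fold below control and the lowest of any member, −2.74 for NUF2 and −2.54 for NDC80. At 120 h it was −0.62, −1.12 and −0.97. NUF2 was above its control at 16, 24 and 32 h, by 0.42, 0.37 and 0.16.

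Of the outermost components, ZWINT, which joins the KNL1 scaffold to the checkpoint complex of KNTC1, ZW10 and ZWILCH, was the brightest member. It ranged over 8.38, 10.4 and 10.8 with miR-124, against 9.83, 10.8 and 10.9 in the control. ZWINT was the only one of the 9 members other than CENPQ with a ratio below 0 at 7 of 7 times, and it stepped down through −0.17 (16 h), −0.41 (24 h) and −0.67 (32 h) to −2.19 (72 h), with −0.11 at the end. Its control level was itself low at 120 h, at 9.83 against 10.9 at 4 h. CENPE, the plus-end-directed kinesin, ranged over 6.87, 8.69 and 9.03 with miR-124, against 8.08, 8.48 and 9.07 in the control, and CENPF over 7.59, 9.71 and 10.0 with miR-124, against 9.11, 9.45 and 10.0 in the control. Their ratios were −1.61 and −1.75 at 72 h, and −0.70 and −0.88 at 120 h. Both were slightly above control at 16 and 24 h, by 0.29 and 0.24 for CENPE and 0.18 and 0.26 for CENPF.

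**Figure D1:**
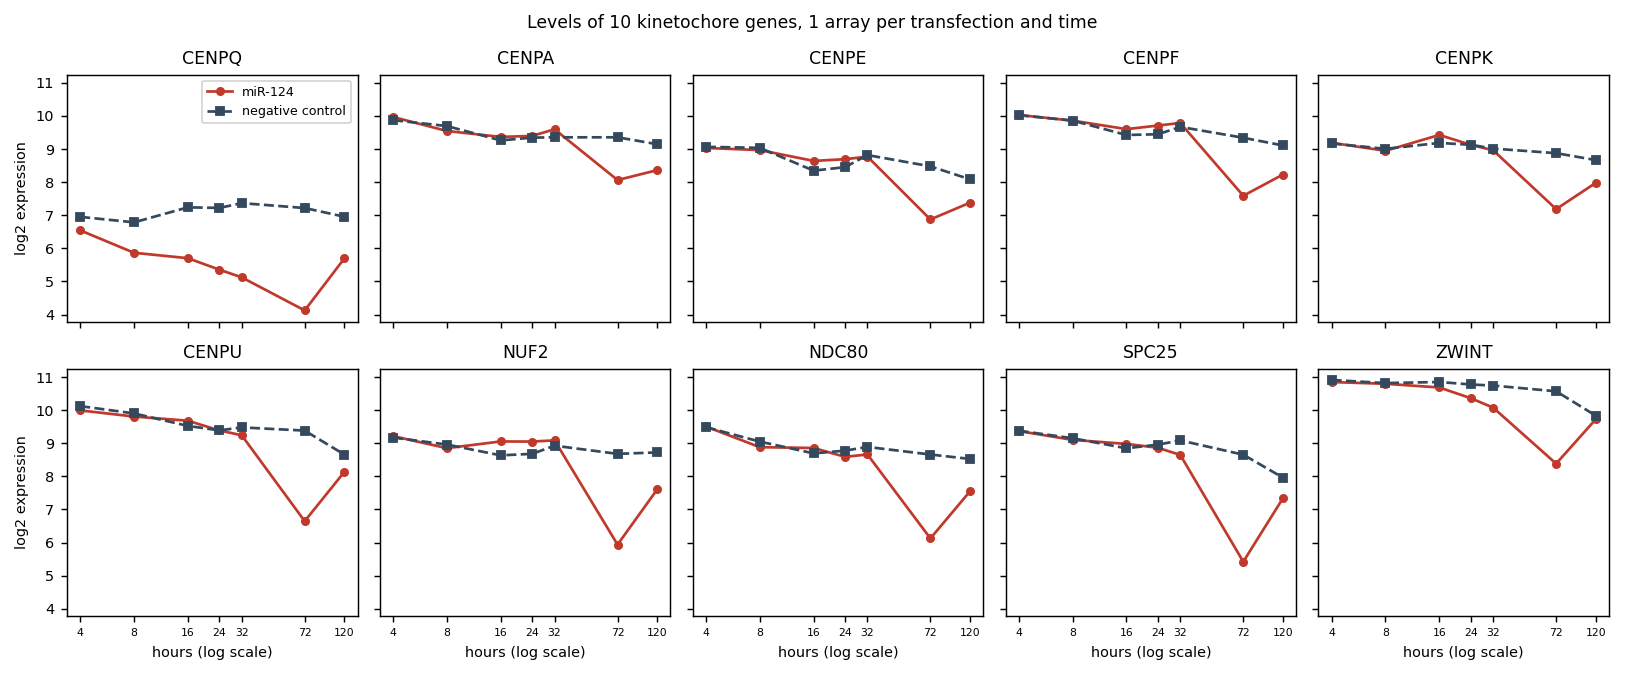
Log2 expression of each of the 10 genes (vertical axis) against hours after transfection (log scale), with circles and solid lines for miR-124 and squares and dashed lines for the negative control, 1 array per point. CENPQ is apart from its control at each time, while the other 9 part from theirs mainly at 72 h.

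CENPQ and the other 9 members had separate ratios up to 32 h and overlapping ones at 72 h. At 8 h the other 9 members had ratios between −0.17 and 0.00, with CENPQ at −0.92. At 32 h they lay between −0.67 and 0.24, with a median of −0.05 and CENPQ at −2.24. At 72 h they lay between −3.23 and −1.29, with a median of −2.19, and CENPQ at −3.09 was inside that range. Of these 9 members 0 were as much as 2-fold lower at any time up to 32 h, 9 were at 72 h, where 5.93% of all tested genes were, and 1, NUF2, was at 120 h, where 1.17% of all were. CENPQ was at least 2-fold lower at 16, 24, 32, 72 and 120 h. The share of all tested genes that low over the first 5 times was 0%, 0.0609%, 0.495%, 1.44% and 1.87%. The members were picked for these courses, so the counts describe the choice.

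**Figure D2:**
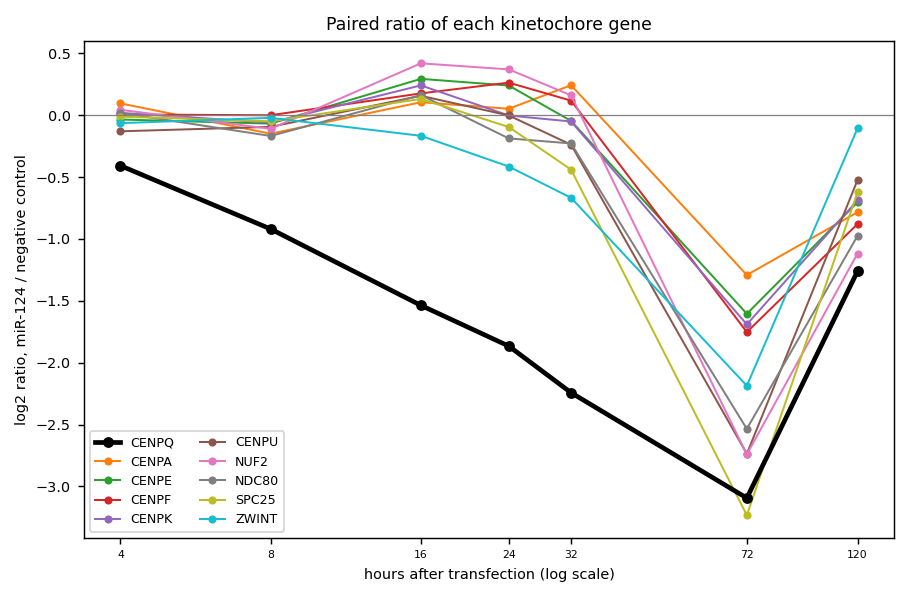
Paired log2 ratio of miR-124 over negative control (vertical axis) against hours after transfection (log scale) for the 10 genes, 1 pair of arrays per point, with CENPQ as the thick black line. CENPQ steps down from −0.41 at 4 h to −3.09 at 72 h, and the other 9 lie between −0.67 and 0.42 until 32 h and between −3.23 and −1.29 at 72 h.

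The members also differed in what was left of the 72 h ratio at 120 h. On the log2 scale 60.7% of it was left for CENPA, 50.2% for CENPF and 40.7% for CENPQ, against 19.2% for SPC25, 19.1% for CENPU and 4.86% for ZWINT. The control arm changed as well. Between 4 and 120 h the control level of SPC25 changed by −1.42, that of CENPU by −1.46 and that of ZWINT by −1.08, and that of CENPQ by 0.00. Between the same times the miR-124 arm changed by −2.03 for SPC25, −1.86 for CENPU, −1.12 for ZWINT and −0.85 for CENPQ. Of the other 9 members, the level at 72 h minus that at 4 h in the miR-124 arm was −3.95 for SPC25 to −1.91 for CENPA. The same difference in the control was −0.83 for NDC80 to −0.29 for CENPK.

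CENPF and CENPU were each read by 3 probe sets. For CENPF the brightest probe set (mean log2 9.41) and the next (7.44) gave −1.75 and −1.97 at 72 h, and the third, with a mean of 4.34 near the bottom of the scale, gave −0.23. For CENPU the 3 probe sets, with means of 9.24, 7.20 and 6.50, gave −2.74, −0.97 and −1.73 at 72 h. They shared the direction at 72 h but not the size. The 2 dimmer probe sets of CENPU were below control before that, at −0.28 and −0.21 at 24 h and −0.38 and −0.51 at 32 h, and the dimmest was below 0 at 7 of 7 times. Each of the other 8 members, CENPQ included, was read by 1 probe set, so its value could not be checked against another.

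**Figure D3:**
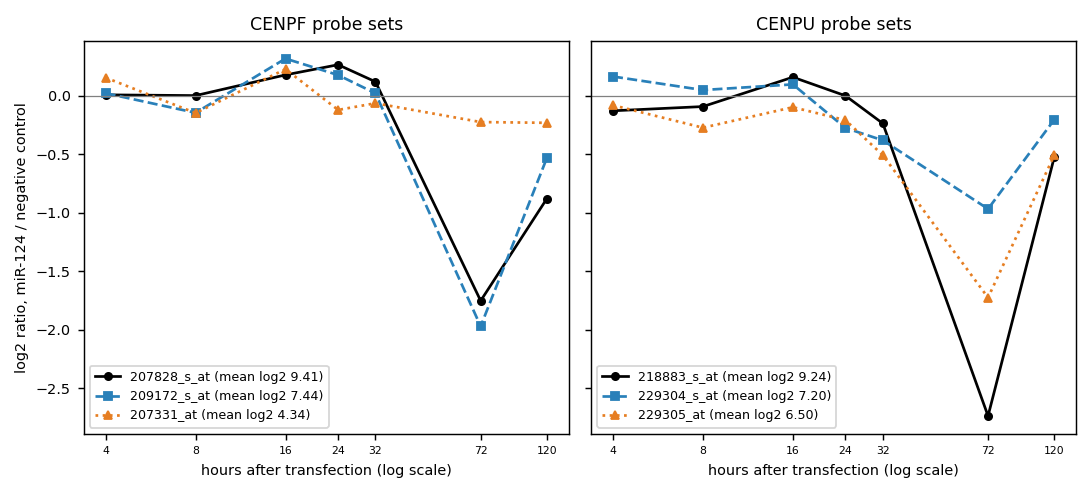
Paired log2 ratio of miR-124 over negative control (vertical axis) against hours after transfection (log scale) for the 3 probe sets of CENPF (left) and of CENPU (right), with each probe set's mean log2 level in the legend. The probe sets of CENPU range from −2.74 to −0.97 at 72 h, and the dimmest of CENPF stays near 0.

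Likeness over the 7 ratios was measured as the root mean square difference between 2 genes, over 13118 tested genes that are not members. The nearest to CENPQ were DEPDC1B at 0.27 (Pearson r = 0.980 over the 7 times), CERS2, a ceramide synthase, at 0.34, CMTM6 at 0.35, CDK4, a kinase of the G1 phase, at 0.36, and TMEM263 at 0.38. None of them is on the kinetochore list. In order of time DEPDC1B had ratios of −0.15, −0.64, −1.14, −1.99, −2.16, −2.71 and −1.03. The nearest to the mean of the other 9 members were RACGAP1 at 0.094 (r = 0.993), the checkpoint kinase BUB1 at 0.10, the kinesin KIF20A at 0.11, the passenger subunit BIRC5 at 0.12 and the kinesin KIF14 at 0.12. Among the members ZWINT was the closest to CENPQ (difference 1.17, r = 0.879) and CENPA the farthest (1.55, r = 0.487). These values describe 7 pairs of arrays that all genes share.

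The rest of the kinetochore was read from a list of 46 other kinetochore and centromere genes written from general knowledge of the complexes, of which 43 were tested and the rest were not analysed here. The effect of miR-124 was tested in an early window of 4 and 8 h, a middle one of 16 to 32 h and a late one of 72 and 120 h, with limma in 1 fit over the 14 arrays with time as a block, and p-values were adjusted over all 13128 genes (Benjamini-Hochberg, 0.05). Errors given with ± are standard errors of that fit. The labels do not say that arrays came from separate cultures. These p-values rest on the spread of the effect between times inside the windows, which may be technical in part. The fit shared 1 spread per gene over all windows. A late p-value or standard error therefore does not measure the spread between 72 and 120 h alone. In the same way, a gap between 72 and 120 h widened the errors of the early and middle effects. With 72 or 120 h left out, the late effect was that of 1 pair. A p-value for it would rest on the other windows alone, so effect sizes only are given for these settings.

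In the early window limma called 0 of the 43 genes, and 0 at an unadjusted p under 0.05. Over all genes it also called 0, with 163 at an unadjusted p under 0.05 (0% lower and 0% higher called). The spread shared over windows takes in the gap between 72 and 120 h, which makes the early test cautious. These counts therefore do not show that no gene changed early. The median over the 43 was −0.05, against −0.01 over all genes. The 2 measured partners of CENPQ and CENPU in their subcomplex were not low early. CENPO had ratios of −0.19 at 4 h and 0.15 at 8 h, and ITGB3BP of 0.10 and 0.03. At 32 h they were −0.37 and −0.50, and at 72 h −0.95 and −1.28.

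In the middle window 1 of the 43 genes fell and 1 rose, against 4.36% of all genes lower and 3.47% higher. MIS12, which anchors the outer kinetochore to the inner, fell by 0.63 ± 0.14 (limma adjusted p = 0.0358), with ratios, in order of time, of −0.22, −0.41, −0.52, −0.60, −0.77, −0.80 and −0.00. CENPN, which reads the CENPA nucleosome, rose by 0.48 ± 0.10 (limma adjusted p = 0.0324) and fell in the late window. Its rise was not called with the mean of its 4 probe sets or with a 1.5-fold minimum. MIS12 and CENPN were named after their values were seen. Neither call was kept without 4, 8, 16, 24 or 32 h, when 0 of the 43 were called. Without 72 h 6 were called, and leaving out 120 h instead gives the same middle result by construction. OIP5, a subunit of the complex that licenses CENPA loading, had ratios of 0.14, −0.64, −0.87, −1.19 and −1.60 over the first 5 times, and its middle effect of −1.22 ± 0.36 did not pass (adjusted p = 0.0872). OIP5 was called in the middle window without 72 h (limma adjusted p = 0.00162), which for that window is the same check as without 120 h.

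In the late window 27 of the 43 genes fell and 0 rose with miR-124, against 12.6% of all genes lower and 16.5% higher. Their median was −0.79, against −0.01 over all genes. In the CCAN 7 of 11 fell, among them CENPH (−1.42 ± 0.09; 2.69-fold lower, limma adjusted p = 0.000129), CENPW (−1.01 ± 0.21) and CENPI (−0.68 ± 0.12), and CENPX was at 0.28 ± 0.11. CENPH was read by 1 probe set, which like that of CENPA is of the kind marked as able to cross-hybridise. All 3 genes of CENPA loading fell, OIP5 (−1.67 ± 0.44), MIS18A (−1.29 ± 0.39) and the CENPA chaperone HJURP (−1.14 ± 0.19). Without 72 h the late effect was that of the 120 h pair, at −0.65 for HJURP, −0.57 for OIP5 and −0.26 for MIS18A. MIS18A (adjusted p = 0.0425) lost its call without any 1 time up to 32 h, with the mean of its probe sets and with centred arrays. In the network of KNL1, the MIS12 complex and SPC24, 2 of 6 fell, DSN1 (−0.89 ± 0.18) and SPC24 (−0.47 ± 0.12). SPC24 is the fourth subunit of the NDC80 complex, and its ratio at 72 h was −0.67, against −3.23 for its direct partner SPC25. The brighter of the 2 SPC24 probe sets was dimmer than that of SPC25, with a mean of 7.27 against 8.55. With the mean of its probe sets the late effect of SPC24 was −0.32. KNL1 (0.31 ± 0.10), NSL1 (0.00 ± 0.10) and PMF1 (−0.16 ± 0.10) were not called.

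Of the SKA complex, which stabilises the grip on the microtubule, 2 of 3 fell, SKA1 (−1.64 ± 0.41) and SKA3 (−0.66 ± 0.17), with SKA2 at −0.05 ± 0.08. The 1 probe set of SKA1 is, like that of CENPH, of the kind marked as able to cross-hybridise. In the corona 3 of 4 fell, SPDL1 (−0.95 ± 0.27), KNTC1 (−0.89 ± 0.12) and ZWILCH (−0.75 ± 0.18). Of the spindle checkpoint 5 of 7 fell, the kinase TTK (−1.70 ± 0.25; 3.25-fold lower, limma adjusted p = 0.0022), BUB1B (−1.66 ± 0.27), MAD2L1 (−1.51 ± 0.37, named after its value was seen), BUB1 (−1.48 ± 0.23) and CDC20 (−1.24 ± 0.35). The CDC20 call (adjusted p = 0.0333) was lost without any 1 of the times from 4 to 32 h (limma adjusted p = 0.0544 to 0.0627). Its ratio was −0.27 in the 120 h pair. Of the chromosomal passenger complex and the shugoshins 4 of 6 fell, the kinase AURKB (−1.67 ± 0.25), SGO2 (−1.41 ± 0.31), BIRC5 (−1.32 ± 0.26) and CDCA8 (−0.85 ± 0.21). Of 3 other centromere proteins KIF2C fell (−1.30 ± 0.24), and CENPB and CENPV were at 0.21 ± 0.20 and 0.29 ± 0.11. In the 120 h pair alone, the ratios of SPC24, SKA1, SKA3, SPDL1, ZWILCH, SGO2 and CDCA8 ran from −0.88 for SGO2 to −0.27 for SPC24. The SPDL1 call was lost without 4, 8 or 24 h and with the mean of its probe sets. The sizes above are those of the brightest probe set. With the mean of all probe sets the late effect was −0.67 for BUB1, −1.04 for AURKB, −0.93 for BIRC5 and −0.41 for SPDL1. That of ZWILCH was larger, at −0.91. In all, without 72 h 16 of the 43 fell and 3 rose (CENPV, CENPX and KNL1, named after their values were seen), and without 120 h 35 fell. With the late arrays fitted alone, which leaves 1 residual degree of freedom, 1 gene, CENPH, was called (adjusted p = 0.0261).

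**Figure D4:**
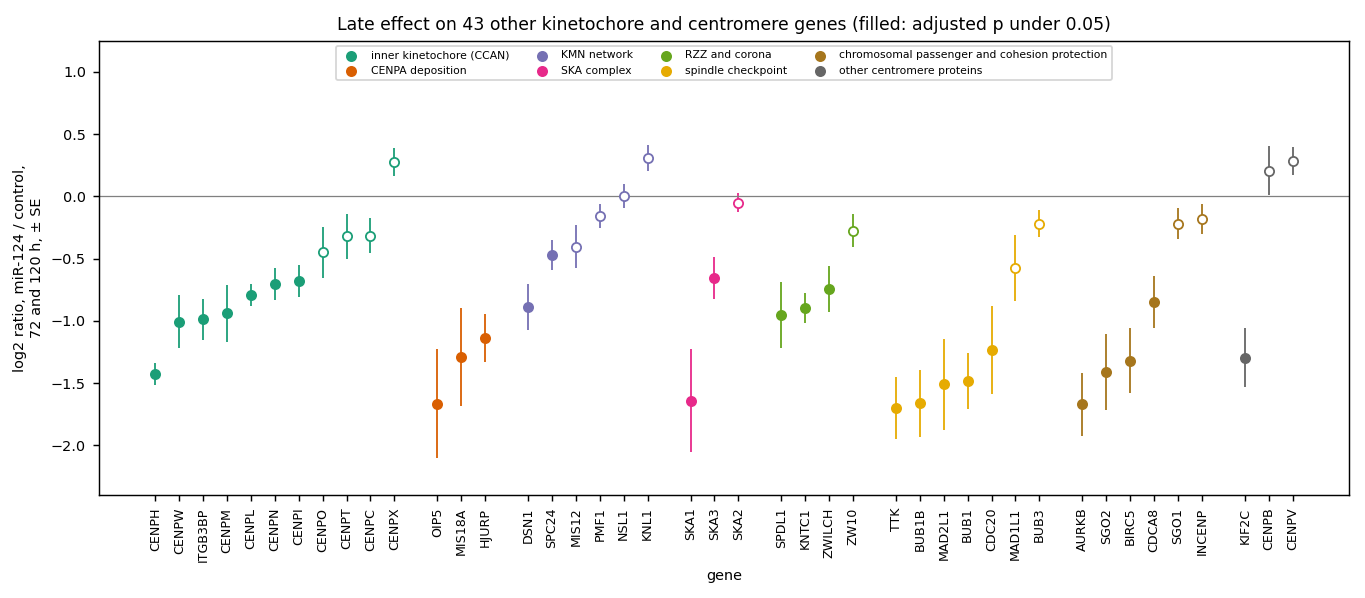
Late effect of miR-124 (log2 ratio over control, mean of the 72 and 120 h pairs, vertical axis) with standard errors from the limma fit for 43 other kinetochore and centromere genes, grouped by complex, with filled points for an adjusted p under 0.05. The 27 filled points are all below 0, and the lowest is TTK at −1.70.

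Whether the late effect differed from the middle one was tested as a contrast in the same fit. It was lower late in 8 of the 43 genes (1.53% of all genes) and higher in 0 (3.21% of all). Among these 8 the largest differences were in TTK (−1.73 ± 0.32, limma adjusted p = 0.0248), AURKB (−1.52 ± 0.33) and BUB1 (−1.46 ± 0.29), and the smallest adjusted p was that of CENPH (−1.43 ± 0.11, adjusted p = 0.00227). The count depended on single times, with 1 called without 16 h or without 24 h and 2 without 4, 8 or 32 h. It was 5 with the mean of all probe sets of a gene, where 40 of the 43 were tested, and 5 with each array centred on its median. For OIP5 the difference was −0.44 ± 0.57 (adjusted p = 0.741).

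In the control arm alone, 14 of the 43 genes fell with time in culture (5.49% of all genes fell) and 0 rose (2.71% of all). The slope per doubling of time was −0.23 ± 0.04 for CDC20, −0.19 ± 0.03 for CENPN and KIF2C, and −0.17 ± 0.03 for BUB1, with limma adjusted p = 0.0202, 0.0132, 0.0114 and 0.0264. Leaving out the 4 h array gave 5, the 8 h array 6, and the 24 or the 120 h array 8. Among the members the control level at 120 h minus that at 4 h was −1.46 (CENPU) to −0.45 (NUF2), and 0.00 for CENPQ.

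Markers of cell division moved in part with the late values. Of 8 proliferation markers (MKI67, TOP2A, CDK1, CCNB1, CCNA2, PCNA, MCM2 and MCM6) 5 fell late and 0 rose, against 12.6% of all genes lower and 16.5% higher. PCNA (late effect 0.05), MCM2 (−0.80, limma adjusted p = 0.103) and MCM6 (−0.60, limma adjusted p = 0.0694) were not called. The median ratio of the 8 markers was −1.88 at 72 h and −0.44 at 120 h, and −0.11 to 0.16 from 4 to 32 h. Their summed level ran from 12.7 to 14.2 on the log2 scale with miR-124 and from 13.4 to 14.2 in the control. In bulk RNA, fewer dividing cells and less of each messenger per dividing cell cannot be told apart. RNA quality was read as the signal of the 3′ control probe set minus that of the 5′ one, and for ACTB at 72 h it came to 0.357 with miR-124 against 0.237 in the control, and for GAPDH 0.301 against 0.145. The arms were further apart at 120 h, at 0.411 with miR-124 against 0.102 in the control for ACTB and 0.199 against 0.0311 for GAPDH, and for ACTB also at 24 h, at 0.561 against 0.271. At 8 h, where CENPQ was already low, it was 0.357 against 0.314 for ACTB and 0.271 against 0.247 for GAPDH. Its part in the values was not tested. The 7 hepatocyte markers measured had means of 10.9 to 13.9, and none was called late. Of 7 markers of blood, endothelial and fibroblast cells 3 (PTPRC, CDH5 and COL3A1) lay below the median of all probe sets, and LYZ averaged 12.6. Of the 4 tested, CD3D and PECAM1 rose late, by 1.44 and 0.46. The summed level of the 7, most of it LYZ, ran from 12.7 to 12.9 with miR-124 and from 12.7 to 13.1 in the control, and their part in the values was not tested.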

How the data were processed

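The authors deposited 1 log2 value for each probe set and array, computed by RMA per the submitters' processing notes; its version is not given in the sources used here. That the scale is log2 was read from the range of 2.93 to 14.4. RMA gives each array nearly the same distribution, which hides a change in total messenger RNA per cell. Medians per array lay between 6.15 and 6.21. Each of 19775 genes was represented by its probe set of highest mean, and the 13128 with a mean above 6.19 were tested, all 10 members among them. limma 3.58.1 in R 4.3.3 (lmFit, eBayes, two-sided) fitted time as a block plus the effect of miR-124 in each window, with 4 residual degrees of freedom, and the control slope with 5. On simulated arrays with 100 genes lowered by 1 and 100 by 2 in the late window, 97% and 100% were recovered, and 8.37% of calls were false. The simulation used independent normal noise at the fitted spread and the same shift at 72 and 120 h. In the data the 2 late ratios could differ widely (MIS18A −2.32 and −0.26), and 3822 genes were called late. The simulated shares therefore do not give the recovery or the false share of the real calls.

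The labels' shared time made 2 arrays a pair, and deviations from the arm means correlated at 0.21 to 0.48 in the 7 pairs. Members, lists and tests were chosen with earlier results of these data known. The genes named by rule were the 10 members, the 2 lowest and the 2 highest late effects among called genes of each of 8 groups, and the 5 nearest by likeness. Other genes given with values, CENPO, ITGB3BP, NSL1, PMF1, SKA2, CENPB and CENPL among them, were named outside that rule. Python 3.11.15 and matplotlib 3.10.9 made the figures. The sequence of the transfected small RNA is not shown here.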

Additional observations from a re-analysis of the deposited data

Results flagged for a closer look

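Levels and ratios of the 14 member probe sets over the 7 times were searched for a value far from the other 6, by the gap over the range, with Dixon's 95% critical value as the mark. Of 42 groups of 7 values, 8 had one. Such a gap turns up by chance in about 1 in 20 groups, but the members were chosen for these ratios and the 7 values are times of a course and not replicates, so the gaps are a description and no test. The value was the paired ratio at 72 h for CENPF (−1.97, in the second brightest probe set), CENPU (−2.74 and −1.73 in 2 probe sets), NDC80 (−2.54), SPC25 (−3.23) and ZWINT (−2.19). It was the control level at 120 h for CENPF (6.91, in the second brightest probe set) and ZWINT (9.83). CENPQ had no such value.

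The late effect differed from the middle one by limma's contrast for 8 of the other kinetochore genes. The difference was −1.73 for TTK, −1.52 for AURKB, −1.46 for BUB1, −1.43 for CENPH, −1.18 for CENPN, −0.77 for SPC24, −0.75 for KNTC1 and −0.51 for CENPL.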

How the results depend on the processing

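The late count of 27 among the 43 other kinetochore genes was 28 with no replicate block (27 lower, and KNL1 higher with adjusted p = 0.0422), and 24 to 27 with no filter, with the mean of all probe sets, with centred arrays, with a 1.5-fold minimum, or without 4, 8, 16, 24 or 32 h. With the mean of all probe sets 40 of the 43 were tested, and 25 were called late. The late count was 1 with only the window's own 4 arrays in the fit, which was added after seeing the data. Without 72 or 120 h the late effect was that of 1 pair, and no count is given. The middle count of 2 ranged from 0 to 6 when each time was left out, and was 1 with the mean of all probe sets, 1 with a 1.5-fold minimum and 7 on its own arrays. The count for late minus middle was 8, with a range of 1 to 31 when each time was left out, 5 with the mean of all probe sets and 5 with centred arrays. With no replicate block it was 9. The control count of 14 ranged from 5 to 14 when each time was left out, and was 16 with centred arrays. The early count was 0 under each alternative run. Of the late effects of the named other genes under these alternatives, 227 kept direction and call, 48 kept direction and lost the call, and none turned. These include the settings without 72 or 120 h. The cause of these shifts was not tested. Several of the alternatives left the late estimate of a gene the same by construction. They were no filter, no replicate block, a time up to 32 h left out, and the window's own arrays. Under those only the call could change, and not the direction. Leaving out 4 h and leaving out 8 h gave the same middle and late results by construction. So did leaving out 72 h and leaving out 120 h for the middle window.

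Over all genes the middle count of 1028 was 458 with a 1.5-fold minimum, 2163 on its own arrays and 0 to 2197 with a time left out. The late count of 3822 was 2063 and 550 under the first 2 of these. Late minus middle gave 622, and 78 to 297 without 1 time up to 32 h. The control course gave 1077, and 229 to 1116 with a time left out. The mean early ratio of CENPF, 0.00, was −0.02 with the mean of its probe sets and −0.02 with centred arrays, and that of CENPU, −0.11, was −0.06 with the mean of its probe sets. Dim signals, such as CENPQ with miR-124 at 72 h, limit the size of a ratio.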
